A study of Homo sapiens with 60 samples.

Results

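The 10 genes described here encode proteins that hold epithelial cells together and give them their intermediate filaments, with 2 markers of the opposite, mesenchymal state. They are *CDH1* and *CDH2* (E- and N-cadherin), *EPCAM*, *CLDN1* and *TJP1* (claudin-1 and ZO-1 of the tight junction), *KRT8*, *KRT18* and *KRT19* (keratins of simple epithelia), *VIM* (vimentin) and *SNAI2* (the transcriptional repressor SLUG). They were chosen by name, were matched to 10 of the 60675 gene rows of the deposited count table, and 9 of them passed the filter on low counts that left 16675 genes for testing. *VIM* did not pass, and *SNAI2* passed only through its counts in the high dose of 1 extract.

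RNA sequencing had been done on HepG2, an established human hepatocellular carcinoma line with an epithelial, hepatocyte-like character, after 24 h with an ethanol extract or with vehicle (labelled 0.1% DMSO, while the series text gives 2%). The 60 libraries were 2 per dose for Coptidis Rhizoma (11.2, 56 and 280 µg/mL), 2 for Zizyphi Fructus, 3 for Citri Unshius Pericarpium, 3 for Cimicifugae Rhizoma, 3 for Bupleuri Radix (11.2, 56 and 280 µg/mL), 3 for Aconiti Lateralis Radix Preparata, 2 for Yijung-tang and 1 for Banhasasim-tang, and 3 for vehicle. Extracts with no other dose named here were given at 20, 100 and 500 µg/mL, and for Coptidis and Bupleuri the top dose is one at which growth was reduced by 20%. All groups are the same cell line, and nothing states that the libraries of a group came from separate cultures, so p-values measure the spread between these libraries. Extracts share a set number in pairs (Coptidis with Zizyphi, Citri with Cimicifugae, Bupleuri with Aconiti, Yijung-tang with Banhasasim-tang), and vehicle has a set of its own. For Coptidis and Zizyphi a library's title names batch D and its description batch C, which was not settled. Against vehicle, the set and the extract therefore cannot be told apart, whereas both doses of an extract share a set.

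Cadherins are the adhesion receptors of the adherens junction: they bind their like on the next cell and are tied to actin through catenins. Claudins seal the tight junction and ZO-1 is the scaffold beneath them, while keratins 8 and 18 pair into the filaments of hepatocytes and keratin 19 is a marker of bile duct cells and of some hepatoma cells. In the epithelial-to-mesenchymal transition, SNAI and ZEB repressors bind E-box sequences in genes such as *CDH1*, and N-cadherin and vimentin gain in place of E-cadherin; healthy hepatocytes carry both cadherins.

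The genes lie at chr16:68737225-68835548 (*CDH1*), chr18:27950966-28177446 (*CDH2*), chr2:47345158-47387601 (*EPCAM*), chr3:190305701-190322475 (*CLDN1*), chr15:29699367-29968865 (*TJP1*), chr17:41523617-41528308 (*KRT19*) and chr10:17228259-17237593 (*VIM*) of GRCh38. *KRT8* (chr12:52897187-52949954, minus strand) and *KRT18* (chr12:52948871-52952901, plus strand) are neighbours whose annotated ends overlap, so reads in the overlap depend on strand-aware counting; whether counting used strand was not stated in the labels. Named pseudogenes of *KRT8* (50) and *KRT18* (67) held 1.03% to 1.62% and 0.156% to 0.352% as many counts as the parent gene in a library.

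Promoter windows of 300 bases (250 before to 50 after a RefSeq start, GRCh38.p14) were found for 5 of the 9 genes looked up: *CDH2* (2 windows), *KRT8*, *VIM*, *CLDN1* and *TJP1* (4 windows), but not *CDH1*, *EPCAM*, *KRT18* or *KRT19*. The most upstream window of each shown gene is printed. *CLDN1* and *CDH2* are shown because they were the genes most often lower with the extracts, and *TJP1* because it went the other way with Coptidis. Capitals mark GCGTG or CACGC, the core bound by the aryl hydrocarbon receptor (a sensor of many plant compounds), on either strand, and CAGGTG or CACCTG, the E-box bound by SNAI and ZEB repressors, on either strand. The motifs do not overlap each other in these windows.
*CLDN1* window, chr3:190322397-190322696, minus strand: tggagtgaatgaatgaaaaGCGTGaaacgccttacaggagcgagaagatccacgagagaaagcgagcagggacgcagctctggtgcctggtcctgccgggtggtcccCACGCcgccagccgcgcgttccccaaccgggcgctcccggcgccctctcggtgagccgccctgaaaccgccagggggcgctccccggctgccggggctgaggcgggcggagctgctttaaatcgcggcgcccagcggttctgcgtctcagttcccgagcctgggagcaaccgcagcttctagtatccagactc
*CDH2* first window, chr18:28177081-28177380, minus strand: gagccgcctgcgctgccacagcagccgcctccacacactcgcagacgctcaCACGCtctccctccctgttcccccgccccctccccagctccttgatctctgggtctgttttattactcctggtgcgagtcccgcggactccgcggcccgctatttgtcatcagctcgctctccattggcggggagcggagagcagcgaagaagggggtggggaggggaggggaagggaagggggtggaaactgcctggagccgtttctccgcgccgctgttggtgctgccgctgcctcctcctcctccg
*TJP1* first window, chr15:29969000-29969299, minus strand: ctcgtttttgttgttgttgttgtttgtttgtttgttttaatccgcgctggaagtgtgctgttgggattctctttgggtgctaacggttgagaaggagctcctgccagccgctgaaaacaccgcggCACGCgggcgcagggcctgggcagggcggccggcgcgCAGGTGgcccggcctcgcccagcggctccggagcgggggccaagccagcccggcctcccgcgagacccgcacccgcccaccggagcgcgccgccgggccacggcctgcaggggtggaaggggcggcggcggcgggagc
The *CLDN1* window held 2 matches of the receptor core and no E-box, the first *CDH2* window 1 match and no E-box, and the first *TJP1* window 1 match of each. The second *CDH2* window held neither motif. Of the other *TJP1* windows, 2 held 1 and 2 matches of the receptor core and no E-box, and the fourth held neither. Across all 35116 promoter windows of this length, 36.5% held the receptor core and 20.6% the E-box, so such matches are common.

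Library totals ran from 18015552 to 29549499 counts. Levels below are CPM (counts per 1000000 library counts) scaled by TMM, a correction for library composition. Some libraries stood apart before any test. In the Coptidis libraries mitochondrial ribosomal RNA made up 11.6% to 11.8% of counts at the low dose, 10.2% to 11.5% at the medium dose and 5.41% to 5.68% at the high dose, against 2.47% to 2.61% with vehicle and 2.31% to 3.51% with the other extracts that have replicates. The 3 Banhasasim libraries had 0.485%, 8.01% and 11.8% at the low, medium and high dose. The part of this share in the Coptidis results was not tested. In the third Bupleuri low-dose library, short transcripts were raised over long ones by 0.578 (difference of median log2 levels, relative to vehicle), against -0.252 to 0.113 in 58 others, of which both Coptidis high-dose libraries were the lowest (-0.252 and -0.176). In the Banhasasim low-dose library, transcripts rich in G and C were raised over those poor in them by 1.60 on the same scale, against -0.019 to 0.417 in those 58. The spread estimate is shared by all groups in the fit, so the third Bupleuri low-dose library also bears on other extracts: without it 1724 genes passed with Zizyphi high over vehicle in place of 606, and 811 in place of 281 with Yijung low. Every other extract library was also raised on this GC measure, by 0.090 or more, where the 3 vehicle libraries lay between -0.019 and 0.027. The GC content of the keratin transcripts (56.2%, 55.7% and 61.8% for *KRT8*, *KRT18* and *KRT19*) is above that of the other genes here (41.4% to 48.6%), so this shift is given again beside the keratin results. Liver markers (*ALB*, *AFP*, *APOA1*, *TTR* and 4 more) were high throughout, at 16110 to 27400 CPM summed, whereas 7 fibroblast markers summed to 0.156 to 3.37 CPM with *DCN* and *POSTN* at 0 counts. Of 5 immune markers, *PTPRC* and *MS4A1* were at 0 counts and *CD3E* was under 1 CPM in every library. With *CD14* and *LYZ*, however, the immune list summed to 519.8 to 1655 CPM. Of 4 endothelial markers, *KDR* was at 0 counts and *CDH5* under 1 CPM in every library. With *PECAM1* and *VWF* that list summed to 2.765 to 7.015 CPM.

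In vehicle cells, the levels per 1000 bases of exon were highest for the keratins, at 151 CPM for *KRT18*, 135 CPM for *KRT8* and 65.3 CPM for *KRT19*. *EPCAM* followed with 57.6 CPM, *CLDN1* with 43.7 CPM, *CDH2* with 24.1 CPM, *TJP1* with 7.73 CPM and *CDH1* with 2.41 CPM per 1000 bases. Scaled by the longest transcript in place of all exons, *KRT8* (325 CPM) stood above *KRT18* (233 CPM) and the others kept this order. N-cadherin mRNA thus exceeded E-cadherin mRNA 10.0-fold per length. *VIM* had 4 counts in all 60 libraries and *SNAI2* had 270.

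**Figure D1:**
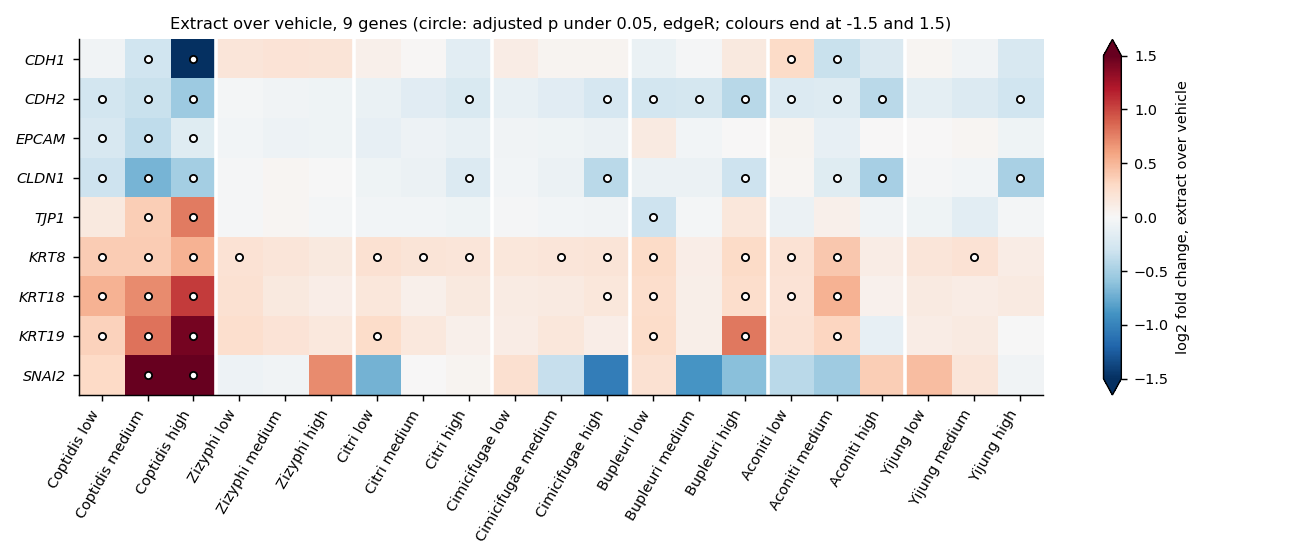
Map of log2 fold changes (extract over vehicle, colour, cut at -1.5 and 1.5) for the 9 tested genes in 21 extract and dose groups, with a circle where the edgeR adjusted p is under 0.05. Coptidis at the high dose carries a circle in every row (*SNAI2* entered the test only through that group), Zizyphi carries 1 in all, and the *CLDN1* row is blue at the high dose of every extract but Zizyphi.

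Passing the test means an adjusted p under 0.05 by edgeR's quasi-likelihood test with Benjamini-Hochberg adjustment over all 16675 genes. With Coptidis, 6 of the 9 tested genes passed at the low dose (3 higher, 3 lower, where 33.2% of all tested genes passed), 9 at the medium dose (5 higher, 4 lower, background 50.7%) and 9 at the high dose (5 higher, 4 lower, background 67.5%). *SNAI2*, among the 9 at the high dose, had to differ there through the filter, and without it 8 of 8 passed (4 higher, 4 lower). At the medium dose 8 of 8 passed without it (4 higher, 4 lower), and at the low dose 6 of 8. Since most of all tested genes passed at the medium and high dose, these counts say little about the 9 genes, and the sizes of the changes carry the description. With Zizyphi, 1 gene, *KRT8*, passed at the low dose (background 2.79%), 0 at the medium dose (1.93%) and 0 at the high dose (3.63%).

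With Citri, 2 genes passed at the low dose (background 15.9%), 1 at the medium dose (10.5%) and 3 at the high dose (1 higher, 2 lower, 14.2%). With Cimicifugae, 0 passed at the low dose (background 6.1%), 1 at the medium dose (10.7%) and 4 at the high dose (2 higher, 2 lower, 22.2%). With Bupleuri, 5 passed at the low dose (3 higher, 2 lower, background 22.3%), 1 at the medium dose (10.9%) and 5 at the high dose (3 higher, 2 lower, 38.9%). With Aconiti, 4 passed at the low dose (3 higher, 1 lower, background 9.9%), 6 at the medium dose (3 higher, 3 lower, 20.9%) and 2 at the high dose, both lower (23.2%). With Yijung-tang, 0 passed at the low dose (background 1.69%), 1 at the medium dose (6.25%) and 2 at the high dose, both lower (17.3%). These 21 comparisons share the same 3 vehicle libraries.

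The counts of 0 with edgeR stood beside 1 (Zizyphi high), 3 (Zizyphi medium), 2 (Cimicifugae low) and 2 (Yijung low) genes at an unadjusted p under 0.05, and DESeq2 called 1 gene with Cimicifugae low and 0 in the other 3. Without the third Bupleuri low-dose library the number passing became 3, 2 and 1 with Zizyphi low, medium and high, where the number over all genes became 1288 at the low dose, and 1110 and 1724 in place of 321 and 606 at the medium and high dose. It became 5 and 2 with Citri low and medium (all genes 4027 and 3098 in place of 2657 and 1753), 3 and 4 with Cimicifugae low and medium (all genes 2186 and 3150 in place of 1018 and 1782) and 4 with Aconiti high (all genes 5229 in place of 3874). With Yijung-tang low, medium and high it became 2, 3 and 4 (all genes 811, 2112 and 4133 in place of 281, 1042 and 2890). It became 2 with Bupleuri low, the group that holds the library (all genes 2051 in place of 3716).

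Between the high and the low dose of the same extract, 7 genes passed with Coptidis (4 higher, 3 lower, background 60.2%; 6 of 8 without *SNAI2*), 4 with Bupleuri (3 higher, 1 lower, 40.2%) and 4 with Aconiti, all lower (14.6%). With Cimicifugae 1 gene passed (background 7.14%) and with Yijung-tang 1 (7.29%), and in both it was *CLDN1*, lower. With Citri 0 passed (background 0.78%), as with Zizyphi (0.006%, which is 1 gene of 16675). For Citri, 4 genes had an unadjusted p under 0.05 and DESeq2 called 1, while for Zizyphi both counts were 0. Without the third Bupleuri low-dose library 3 genes passed with Citri, 2 with Cimicifugae, 3 with Yijung-tang and 0 with Zizyphi, and the number over all genes became 357 in place of 130 with Citri, 2113 in place of 1191 with Cimicifugae and 2023 in place of 1215 with Yijung-tang.

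*CLDN1*, the claudin that seals hepatocyte and many other tight junctions, was the gene whose level followed the dose in most extracts. It fell at the high against the low dose of 5 of the 7 extracts with replicates: Aconiti, Yijung-tang, Cimicifugae, Bupleuri and Coptidis. With Aconiti it had 117, 113 and 110.0 CPM at the high dose and 160.3, 166 and 166 CPM at the low dose, a log2 fold change of -0.53 ± 0.04 (SE; edgeR adjusted p = 3.83e-14). With Yijung-tang it had 114 and 113 CPM at the high dose and 157 and 161 CPM at the low dose, a log2 fold change of -0.48 ± 0.05 (edgeR adjusted p = 7.97e-10). With Cimicifugae it had 122, 121 and 121 CPM at the high dose and 161, 155 and 151 CPM at the low dose, a log2 fold change of -0.36 ± 0.04 (edgeR adjusted p = 3.3e-09). In these 3 extracts every high-dose library lay below every low-dose library by a wide margin, and the medium dose lay between them or beside the low dose, at 138 to 143 CPM with Aconiti, 153 and 158 CPM with Yijung-tang and 146 to 153 CPM with Cimicifugae.

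Bupleuri gave a smaller fall of *CLDN1*, with 136, 128 and 125 CPM at the high dose and 158, 149 and 143 CPM at the low dose (log2 fold change -0.21 ± 0.04, edgeR adjusted p = 2.12e-05). Coptidis was the exception to the dose order: *CLDN1* had 158, 164 and 158 CPM with vehicle, 130.2 and 128 CPM at the low dose, 102 and 94.7 CPM at the medium dose and 108 and 115 CPM at the high dose. All 6 Coptidis libraries lay below the vehicle libraries. Its change was -0.70 ± 0.05 at the medium dose against vehicle (edgeR adjusted p = 2.21e-17) and -0.52 ± 0.05 at the high dose (edgeR adjusted p = 9.93e-14). With Citri the high-dose libraries (136, 144 and 136 CPM) also lay below the low-dose ones (155, 157 and 149 CPM), but the log2 fold change of -0.15 ± 0.04 did not pass (edgeR adjusted p = 0.0685). With Zizyphi *CLDN1* had 159 and 161 CPM at the high dose and 159 and 158 CPM at the low dose (log2 fold change 0.01 ± 0.05).

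The 5 falls of *CLDN1* between doses kept their call in every alternative fit and without any 1 library. Against vehicle, *CLDN1* fell in 9 groups, and 8 of these calls also held throughout. The other was Citri at the high dose, at -0.20 ± 0.04 (edgeR adjusted p = 0.000323), where correcting each library for GC content and transcript length brought the change to -0.10 (edgeR adjusted p = 0.069).

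**Figure D2:**
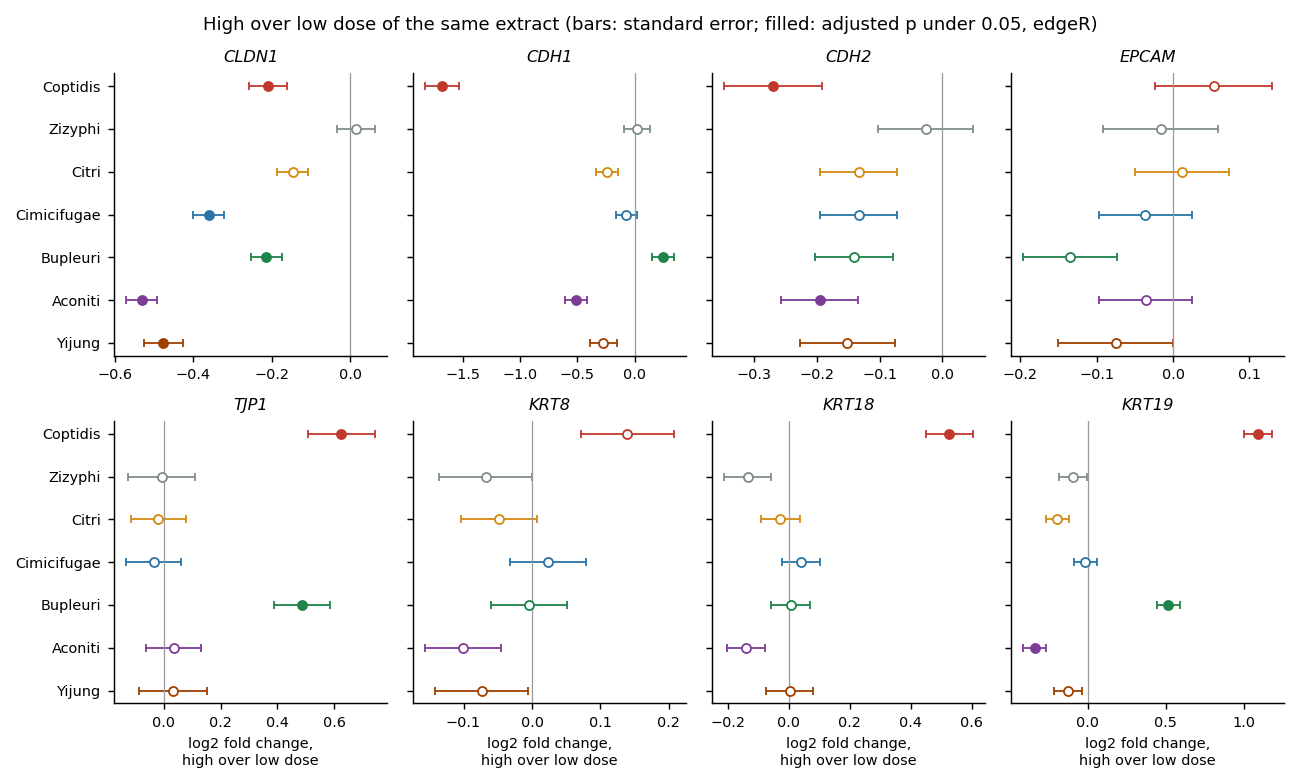
Log2 fold change of the high over the low dose for 8 genes (panels) in 7 extracts (rows), with bars for the standard error and filled points where the edgeR adjusted p is under 0.05. *CLDN1* lies left of 0 with 6 extracts, while *KRT8* has no filled point and *KRT19* is to the right with Coptidis and Bupleuri and to the left with Aconiti. The axes differ between panels.

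*CDH1*, the adhesion receptor of epithelial adherens junctions, fell most of the 9 genes with Coptidis at its high dose. It had 4.73 and 4.14 CPM there and 15.1, 14.6 and 14.9 CPM with vehicle, which is 3.34-fold lower (log2 fold change -1.74 ± 0.14, edgeR adjusted p = 3.2e-15). Against the low dose, at 15.4 and 12.9 CPM, the log2 fold change was -1.68 ± 0.15 (edgeR adjusted p = 1.23e-13). The medium dose, at 12.1 and 11.9 CPM, lay nearer to vehicle, with a log2 fold change of -0.30 ± 0.11 (edgeR adjusted p = 0.0237). That last call was lost without vehicle replicate 1 or either medium-dose library, at -0.29 to -0.32 (edgeR adjusted p 0.0561 to 0.0972), whereas both high-dose calls held in every alternative fit.

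With Aconiti, *CDH1* did not follow the dose in one direction. It had 18.0, 19.3 and 17.3 CPM at the low dose, 11.1, 12.4 and 11.8 CPM at the medium dose and 12.2, 13.2 and 12.8 CPM at the high dose, and the low-dose libraries were the highest of any group on average. The high dose was lower than the low dose by -0.51 ± 0.10 in log2 (edgeR adjusted p = 9.63e-05), a call that held throughout. Against vehicle, the medium dose was lower by -0.34 ± 0.10 (edgeR adjusted p = 0.00999), a call lost without Aconiti medium replicate 1 (-0.30, edgeR adjusted p = 0.0605). The low dose was higher by 0.29 ± 0.09 (edgeR adjusted p = 0.0419), a call lost without any 1 of the 3 vehicle or 3 low-dose libraries (0.24 to 0.32, edgeR adjusted p 0.0509 to 0.166), and the high dose did not pass (-0.22 ± 0.10, edgeR adjusted p = 0.0992).

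Bupleuri at its high dose had 15.9, 16.1 and 17.4 CPM of *CDH1*, above the 3 vehicle libraries but with a change that did not pass (0.15 ± 0.10, edgeR adjusted p = 0.242). Against its low dose it passed at 0.25 ± 0.10 (edgeR adjusted p = 0.0344), and this rested on the third low-dose library (9.56 CPM, the others 16.1 and 15.7 CPM). Without that library the log2 fold change was 0.05 (edgeR adjusted p = 0.677), and without Bupleuri high replicate 2 or 3 the call was lost too (0.26 and 0.21, edgeR adjusted p 0.0523 and 0.122). Citri and Yijung-tang had lower *CDH1* in every high-dose than in every low-dose library, but neither change passed (-0.24 ± 0.10 and -0.27 ± 0.12, edgeR adjusted p 0.353 and 0.188).

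*CDH2*, which hepatocytes carry beside *CDH1*, was below vehicle by smaller and more even steps. It had 81.6 and 80.8 CPM with Coptidis at the high dose, 93.0, 85.3 and 90.2 CPM with Bupleuri at the high dose, 85.1, 92.1 and 92.9 CPM with Aconiti at the high dose and 123, 116 and 118 CPM with vehicle. The log2 fold changes over vehicle were -0.55 ± 0.07 with Coptidis, -0.41 ± 0.06 with Bupleuri and -0.40 ± 0.06 with Aconiti (edgeR adjusted p 4.62e-09, 4.37e-07 and 2.79e-06). Yijung-tang and Cimicifugae at the high dose and Coptidis at the medium and low dose were also lower, by -0.30, -0.25, -0.34 and -0.28, with calls that held in every alternative fit. In these 7 groups every library lay below every vehicle library, and the 21 log2 fold changes over vehicle spanned -0.55 to -0.03.

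The other 5 falls of *CDH2* over vehicle were less secure. The Bupleuri medium and low doses (-0.26 and -0.27) lost the call when each extract was fitted with vehicle alone (edgeR adjusted p 0.255 and 0.159), and the low dose was at -0.13 (edgeR adjusted p = 0.0254) without the third low-dose library. Citri at the high dose (-0.23) lost it without vehicle replicate 1 (-0.20, edgeR adjusted p = 0.0605) or Citri high replicate 1 (-0.21, edgeR adjusted p = 0.0512). Aconiti at the medium dose (-0.19) lost it without vehicle replicate 1 or Aconiti medium replicate 1 or 3 (-0.17 to -0.19, edgeR adjusted p 0.0617 to 0.103), and at the low dose (-0.21) without vehicle replicate 1 or Aconiti low replicate 1 or 3 (-0.18 to -0.21, edgeR adjusted p 0.0707 to 0.125).

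Between doses of an extract, where the set is shared, *CDH2* fell with Coptidis (-0.27 ± 0.08, edgeR adjusted p = 0.00251) and with Aconiti (-0.20 ± 0.06, edgeR adjusted p = 0.0256). The Aconiti call was lost without Aconiti high replicate 1 or Aconiti low replicate 1 or 2 (-0.16 to -0.20, edgeR adjusted p 0.0634 to 0.147). With Citri, Cimicifugae and Yijung-tang every high-dose library was below every low-dose library, at log2 fold changes of -0.13, -0.13 and -0.15 that did not pass. With Bupleuri the change was -0.14 ± 0.06 (edgeR adjusted p = 0.0663), and without the third low-dose library (77.7 CPM, the others 111 and 107 CPM) it was -0.29 (edgeR adjusted p = 3.86e-08).

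The ratio of *CDH2* to *CDH1* was 2.30-fold the vehicle mean with Coptidis at the high dose, where both genes fell and *CDH1* fell further. It was 0.867-fold at the Coptidis low dose and 0.975-fold at its medium dose, so of the 3 doses only the high one lay above the vehicle mean. The lowest ratios were those of Bupleuri at the high dose (0.679-fold) and Aconiti at the low dose (0.709-fold).

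*EPCAM*, a surface glycoprotein of epithelia and of hepatic progenitors, changed little. It fell with Coptidis at the medium dose, to 104 and 118 CPM, against 147, 146 and 143 CPM with vehicle (log2 fold change -0.38 ± 0.07, edgeR adjusted p = 1.31e-05), a call that held throughout. At the Coptidis low dose it was -0.24 ± 0.07 (edgeR adjusted p = 0.00707), a call lost without Coptidis low replicate 2 (-0.22, edgeR adjusted p = 0.0729) and after the GC and length correction (-0.13, edgeR adjusted p = 0.0963). At the high dose it was -0.18 ± 0.07 (edgeR adjusted p = 0.0195), lost without Coptidis high replicate 2 (-0.14, edgeR adjusted p = 0.181) and after that correction (-0.04, edgeR adjusted p = 0.512). In the other 18 groups and in all 7 comparisons of doses *EPCAM* did not pass, with log2 fold changes between -0.14 and 0.14.

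*TJP1*, the ZO-1 scaffold that ties claudins to actin, went the opposite way to *CLDN1* with Coptidis. It had 90.9, 83.1 and 87.2 CPM with vehicle, 101 and 91.2 CPM at the low dose, 117 and 106 CPM at the medium dose and 155 and 143 CPM at the high dose. The rise was 1.71-fold at the high dose over vehicle (log2 fold change 0.78 ± 0.11, edgeR adjusted p = 2.62e-08) and 0.63 ± 0.12 in log2 over the low dose (edgeR adjusted p = 1.44e-05), and both calls held throughout. Across the alternatives its size ranged from 0.57 to 0.83 over vehicle and from 0.38 to 0.70 over the low dose. *TJP1* has the longest transcript of these genes (7950 bases). The Coptidis high-dose libraries were those most shifted to long transcripts (-0.252 and -0.176 on the measure above), and the part of this shift was not tested. The medium-dose rise over vehicle (0.37 ± 0.11, edgeR adjusted p = 0.00403) was lost without Coptidis medium replicate 2 (0.29, edgeR adjusted p = 0.0932).

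Bupleuri also raised *TJP1* between doses, to 102, 100.0 and 93.6 CPM at the high dose, against 83.1, 81.2 and 45.7 CPM at the low dose (log2 fold change 0.49 ± 0.10, edgeR adjusted p = 8.14e-05). Without the third low-dose library the rise was 0.26 (edgeR adjusted p = 4.24e-05). The apparent fall at the Bupleuri low dose over vehicle (-0.31 ± 0.10, edgeR adjusted p = 0.019) came with that library: without it the change was -0.08 (edgeR adjusted p = 0.307), and without vehicle replicate 1 it was -0.28 (edgeR adjusted p = 0.0848). Over vehicle the Bupleuri high dose was at 0.17 ± 0.10 (edgeR adjusted p = 0.156), and it passed without that library (0.17, edgeR adjusted p = 0.00133). In the 5 other extracts with replicates *TJP1* did not pass over vehicle or between doses.

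**Figure D3:**
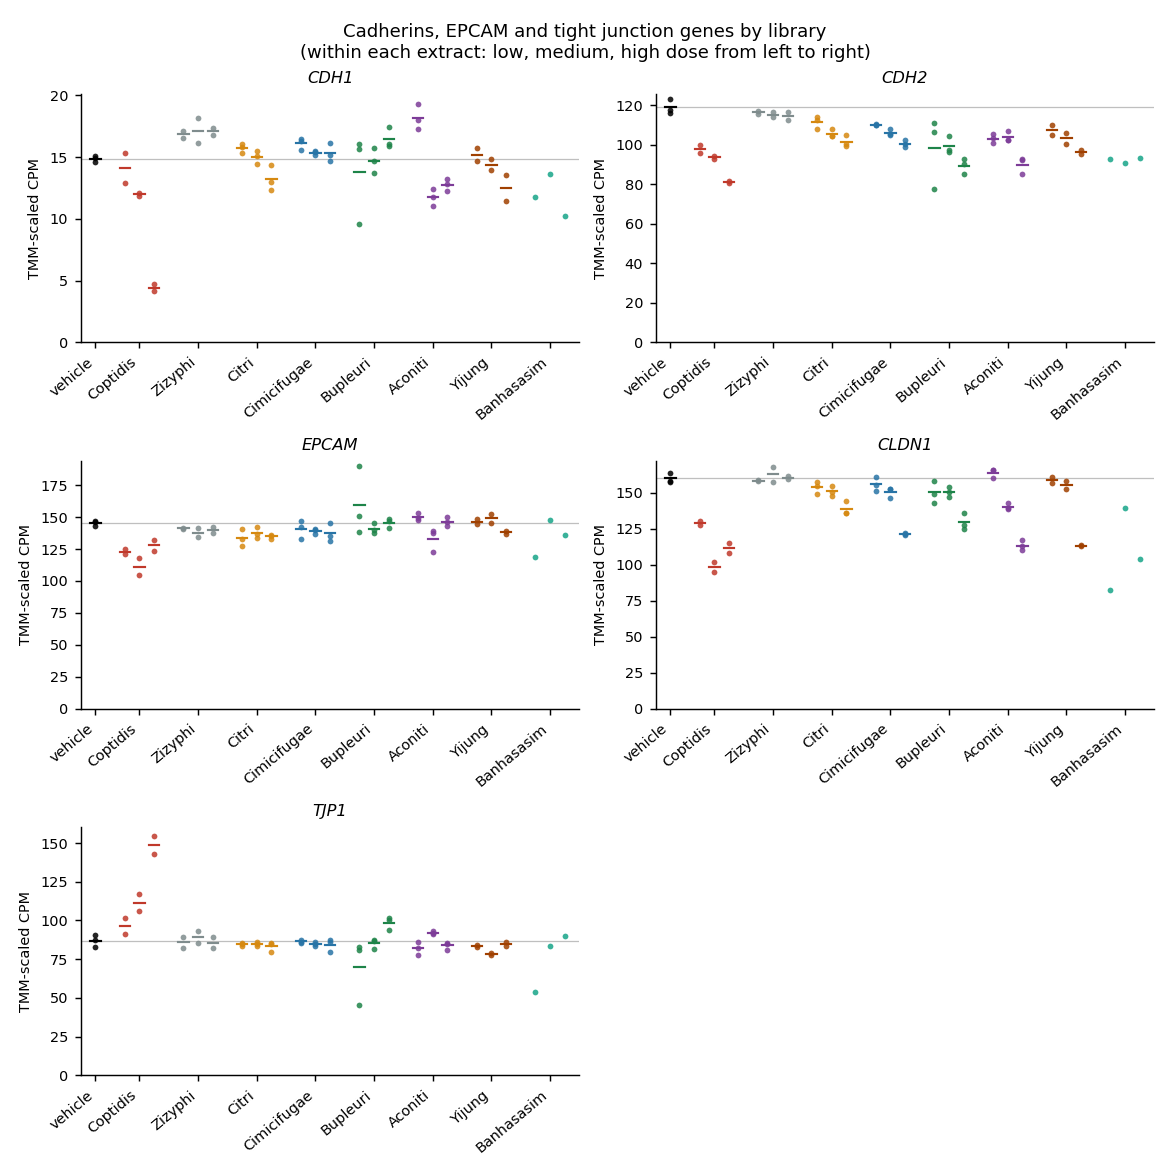
TMM-scaled CPM of *CDH1*, *CDH2*, *EPCAM*, *CLDN1* and *TJP1* in each of 60 libraries (points) with group means (bars) where a group has replicates, for vehicle and for low, medium and high dose of each extract from left to right; the grey line is the vehicle mean. *CDH1* at the Coptidis high dose (4.73 and 4.14 CPM) is far below all other libraries, and *CLDN1* steps down at the high dose of most extracts.

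The 3 keratins rose with Coptidis at every dose, and *KRT18* and *KRT19* rose further with each dose, while *KRT8* did not differ in its mean between the low and the medium dose. Of these rises, that of *KRT19* at the low dose (0.35) was less secure. After the GC and length correction it was 0.10 (edgeR adjusted p = 0.0853). The share of mitochondrial ribosomal RNA, given above, was raised in the same libraries and highest at the low dose, and its part in these results was not tested. *KRT19*, the keratin of bile duct and progenitor cells, had 145, 155 and 158 CPM with vehicle, 174 and 214 CPM at the low dose, 272 and 260 CPM at the medium dose and 394 and 431 CPM at the high dose. Its log2 fold change over vehicle was 1.44 ± 0.08 at the high dose (2.71-fold, edgeR adjusted p = 1.96e-20) and 0.81 ± 0.08 at the medium dose (edgeR adjusted p = 9.76e-12). *KRT18* had 986 and 1014 CPM at the high dose and 479, 478 and 502 CPM with vehicle (log2 fold change 1.04 ± 0.07, edgeR adjusted p = 1.07e-17), and *KRT8* had 1307 and 1350 CPM at the high dose and 916, 939 and 936 CPM with vehicle (0.52 ± 0.06, edgeR adjusted p = 5.14e-10). At the low and the medium dose *KRT8* averaged 1205 CPM each, with log2 fold changes over vehicle of 0.38 and 0.38. Within the set, the high over the low dose gave 1.09 ± 0.09 for *KRT19* and 0.53 ± 0.08 for *KRT18*, both passing (edgeR adjusted p 1.84e-14 and 9.73e-08), and 0.14 ± 0.07 for *KRT8*, which did not (edgeR adjusted p = 0.0736).

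Because *KRT18* rose more than its partner, the ratio of *KRT8* to *KRT18* fell to 0.907-fold the vehicle mean at the Coptidis low dose, 0.799-fold at the medium dose and 0.694-fold at the high dose, and the libraries of these doses did not overlap. In vehicle the 3 libraries lay between 0.974-fold and 1.03-fold. Among the other groups with replicates the ratio was lowest for Aconiti at the medium dose (0.927-fold). The single Banhasasim libraries lay lower still, at 0.858-fold, 0.918-fold and 0.819-fold at the low, medium and high dose. The ratio itself was not tested.

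Bupleuri at its high dose raised *KRT19* out of proportion to the other keratins. It had 252, 278 and 263 CPM there and 145, 155 and 158 CPM with vehicle (log2 fold change 0.79 ± 0.07, edgeR adjusted p = 3.04e-12), while *KRT18* was raised by 0.26 and *KRT8* by 0.28. Over the Bupleuri low dose, at 164, 170 and 220 CPM, the rise of *KRT19* was 0.52 ± 0.07 (edgeR adjusted p = 1.25e-07) and, without the third low-dose library, 0.66 (edgeR adjusted p = 1.18e-10). *KRT8* (-0.00 ± 0.06) and *KRT18* (0.01 ± 0.06) did not pass between these doses, but *KRT18* passed without that library (0.16, edgeR adjusted p = 0.00398). The *KRT18* rise over vehicle lost its call when the extract was fitted with vehicle alone (0.26, edgeR adjusted p = 0.0758).

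Aconiti gave its highest keratin levels at the medium dose. *KRT18* had 559, 570 and 557 CPM at the low dose, 738, 694 and 650.2 CPM at the medium dose and 508, 531 and 489 CPM at the high dose. The medium dose was above vehicle by 0.52 ± 0.06 for *KRT18*, 0.41 ± 0.06 for *KRT8* and 0.32 ± 0.07 for *KRT19* (edgeR adjusted p 2.41e-08, 2.8e-07 and 0.000888), and all 3 calls held throughout. *KRT19* then fell at the high dose, to 143, 147 and 129 CPM, against 182, 174 and 176 CPM at the low dose (-0.34 ± 0.07, edgeR adjusted p = 0.000742).

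*KRT8* passed over vehicle in 14 groups, but by edgeR in 0 of the 7 comparisons of high with low dose, of which 1 (Coptidis) had an unadjusted p under 0.05 and was called by DESeq2 (0.16, adjusted p = 0.0401). Of the 14 calls, 6 held in every alternative: the 3 Coptidis doses, Citri low, Bupleuri high and Aconiti medium. Calls were lost after the GC and length correction with Cimicifugae high (0.10, edgeR adjusted p = 0.0752) and Zizyphi low (0.16, edgeR adjusted p = 0.0679), and in the fit with vehicle alone for Bupleuri low (0.29, edgeR adjusted p = 0.0785). Without 1 of the vehicle libraries or 1 of their own, the *KRT8* calls of Zizyphi low, Citri high, Citri medium, Cimicifugae medium, Aconiti low and Yijung medium were lost, at log2 fold changes between 0.15 and 0.24. *KRT18* with Bupleuri low (0.26) lost its call without the third library (0.10, edgeR adjusted p = 0.152) and in the fit with vehicle alone (edgeR adjusted p = 0.161). In the same way *KRT18* lost its calls with Cimicifugae high (0.17, without any of 41 libraries 0.13 to 0.19, edgeR adjusted p 0.0511 to 0.203) and Aconiti low (0.21, without any of 5 libraries 0.19 to 0.21, edgeR adjusted p 0.0599 to 0.101). Both calls were also lost after the GC and length correction (0.08 and 0.13, edgeR adjusted p 0.201 and 0.06). That of Cimicifugae high was lost with RLE scaling too (0.17, edgeR adjusted p = 0.0501).

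*KRT19* over vehicle lost its calls with Coptidis low (0.35) without Coptidis low replicate 3 (0.19, edgeR adjusted p = 0.168), with Citri low (0.27) without vehicle replicate 1 or Citri low replicate 1 (0.24 and 0.22, edgeR adjusted p 0.0646 and 0.0935) and with Bupleuri low (0.27) without the third library (0.13, edgeR adjusted p = 0.213). After the GC and length correction these 3 were at 0.10, 0.06 and -0.01 (edgeR adjusted p 0.0853, 0.463 and 0.922). The GC measure described above was raised in every extract library over vehicle, by 0.24 to 0.417 with Coptidis low, 0.143 to 0.379 with Coptidis medium and 0.139 to 0.174 with Coptidis high. After the GC and length correction *KRT19* over vehicle changed sign to below 0 in 9 groups (Citri high and medium, all Cimicifugae doses, Bupleuri medium and low, Yijung medium and low), and with Cimicifugae high it passed as lower (-0.13, edgeR adjusted p = 0.0169), while the Coptidis high and medium, Bupleuri high and Aconiti medium rises kept their calls. The direction of the smaller *KRT19* differences from vehicle thus depended on this correction.

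**Figure D4:**
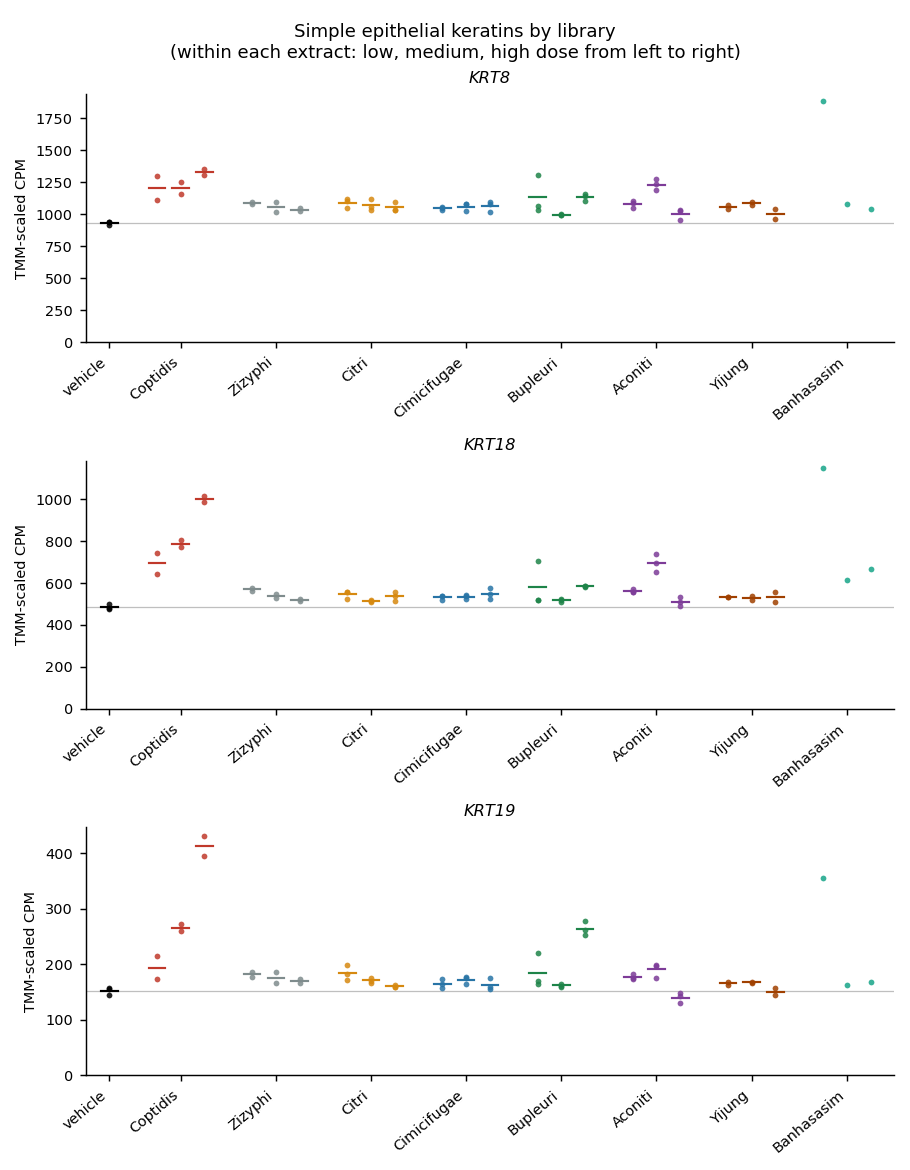
TMM-scaled CPM of *KRT8*, *KRT18* and *KRT19* in each of 60 libraries (points) with group means (bars), ordered as vehicle and then low, medium and high dose of each extract. *KRT19* climbs with the Coptidis dose to 394 and 431 CPM and is raised at the Bupleuri high dose, and the single Banhasasim low-dose library is high for all 3 keratins.

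*VIM*, the intermediate filament protein of mesenchymal cells, was read 4 times in all: in 2 vehicle libraries, 1 Bupleuri low-dose library and 1 Aconiti low-dose library. Coptidis at the high dose had 0 counts of 41658964, where 3 counts would be 0.072 CPM and the exact Poisson 95% interval reaches 0.089 CPM. Vehicle had 2 of 67816549. No gain of *VIM* was detectable at this depth in any group.

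*SNAI2*, the SLUG repressor, was near the limit of detection except with Coptidis. It had 5, 3 and 2 counts with vehicle, 5 and 3 at the low dose, 6 and 14 at the medium dose and 31 and 25 at the high dose. All libraries outside Coptidis had 0 to 7 counts, so the high-dose libraries stood clear of every other one. Since *SNAI2* entered the test only through these high-dose counts, its difference there follows in part from the filter, and the high-dose values are given as a description with no test. As shares of all counts the levels were 1.34 CPM (exact Poisson 95% interval 1.01 to 1.75) at the high dose and 0.147 CPM (0.0707 to 0.271) with vehicle, intervals that cover counting error only. The medium dose, tested only because the high dose brought the gene past the filter, passed at 1.58 ± 0.56 (edgeR adjusted p = 0.0166). The call did not hold without Coptidis medium replicate 3, the library with 14 counts. With 1 library left in the group the change was 0.88. The call was also lost without vehicle replicate 3 (1.37, edgeR adjusted p = 0.0589) and with no filter on low counts (edgeR adjusted p = 0.0564).

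**Figure D5:**
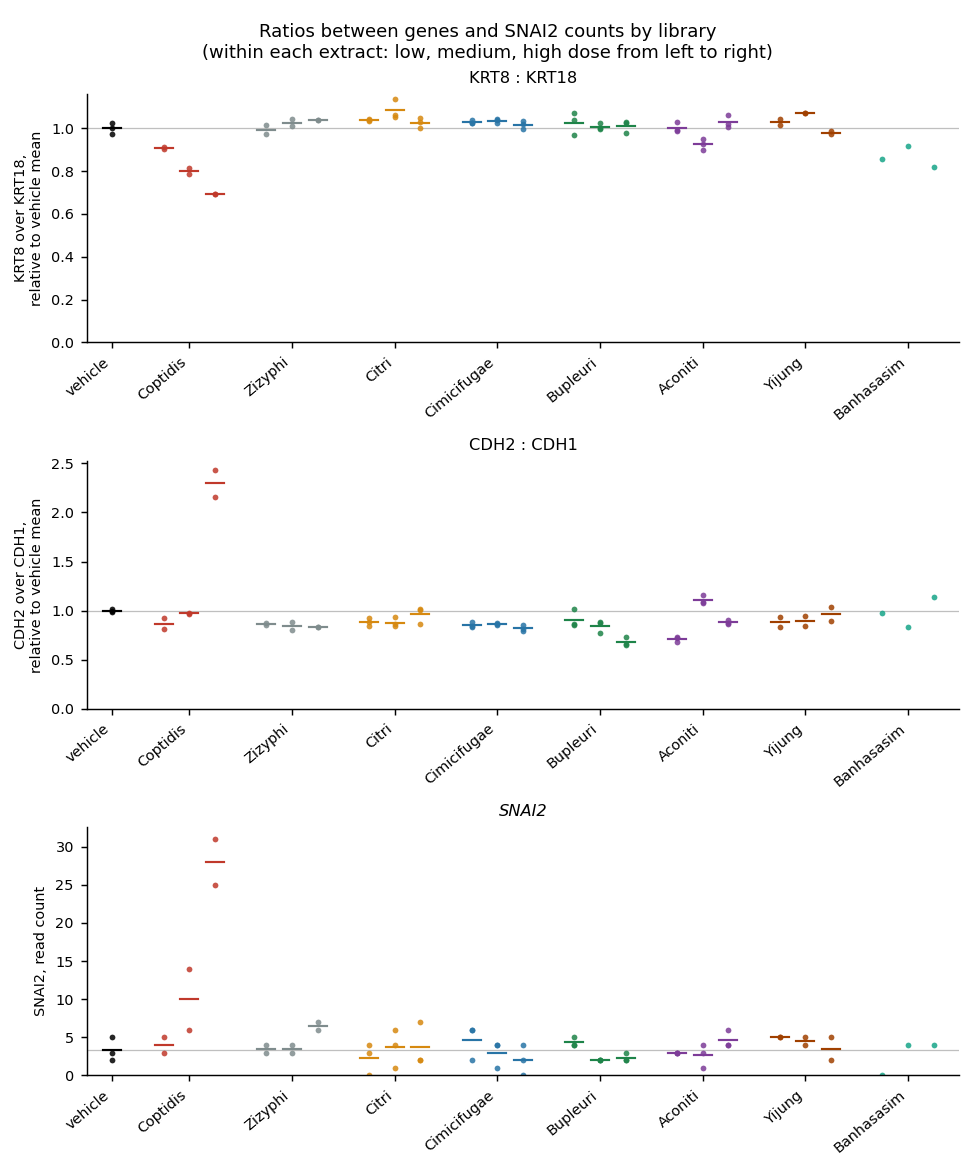
*KRT8* over *KRT18* and *CDH2* over *CDH1* relative to the vehicle mean, and *SNAI2* read counts, in each of 60 libraries (points; bars are group means; low, medium and high dose from left to right within each extract). The keratin ratio steps down with the Coptidis dose to 0.694, the cadherin ratio is at 2.30 at the Coptidis high dose, and *SNAI2* has 31 and 25 counts there.

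Extracts of 1 set could be compared directly at the high dose, free of the vehicle libraries. Coptidis (280 µg/mL) over Zizyphi (500 µg/mL) differed in 8 of 9 genes (5 higher, 3 lower, background 64.4%; 7 of 8 without *SNAI2*, which entered the test through the Coptidis counts), with *CDH1* at -1.94 ± 0.14, *CLDN1* at -0.51 ± 0.05, *TJP1* at 0.80 ± 0.12 and *KRT19* at 1.29 ± 0.09 in log2 (edgeR adjusted p 3.47e-16, 1.22e-12, 1.23e-07 and 6.74e-17). These are close to the Coptidis values over vehicle. *EPCAM* did not pass between them (-0.12 ± 0.08, edgeR adjusted p = 0.157).

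Bupleuri (280 µg/mL) over Aconiti (500 µg/mL) differed in 5 genes, all higher with Bupleuri (background 32.6%). *KRT19* had 252, 278 and 263 CPM with Bupleuri and 143, 147 and 129 CPM with Aconiti (log2 fold change 0.91 ± 0.07, edgeR adjusted p = 6e-14), *CDH1* 15.9, 16.1 and 17.4 CPM with Bupleuri and 12.2, 13.2 and 12.8 CPM with Aconiti (0.37 ± 0.10, edgeR adjusted p = 0.00244), and *CLDN1* 136, 128 and 125 CPM with Bupleuri and 117, 113 and 110.0 CPM with Aconiti (0.19 ± 0.04, edgeR adjusted p = 0.000139). *KRT8* (0.17) and *KRT18* (0.20) passed as well, but *KRT8* not without Bupleuri high replicate 3 or Aconiti high replicate 3 (0.16 and 0.14, edgeR adjusted p 0.0526 and 0.089) and *KRT18* not without Aconiti high replicate 3 (0.17, edgeR adjusted p = 0.0664). Cimicifugae over Citri, both at 500 µg/mL, differed in 1 gene (background 4.07%): *CLDN1* had 122, 121 and 121 CPM with Cimicifugae and 136, 144 and 136 CPM with Citri (-0.20 ± 0.04, edgeR adjusted p = 0.000923), a call lost with no filter on low counts (edgeR adjusted p = 0.0524).

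Other genes of the same structures were read from lists. With Coptidis at the high dose over vehicle 67.5% of all tested genes passed (34.5% higher, 33.0% lower), and the counts that follow for this dose stand beside that background. In the desmosome, the junction that anchors keratin filaments, 7 of 9 tested genes were higher and 2 lower with Coptidis at the high dose over vehicle, with a median log2 fold change of 1.10, where the median of all tested genes was 0.001. *JUP* (plakoglobin) had 292 CPM and 74.6 CPM with vehicle, *PERP* 377 CPM and 113 CPM with vehicle, and *DSP* (desmoplakin) 1541 CPM and 542 CPM with vehicle, at log2 fold changes of 1.97, 1.74 and 1.51. Of the adherens junction genes other than cadherins, 4 of 7 were higher and 1 lower (median 0.318), among them the catenin *CTNNA1* (1.13) and *NECTIN1* (1.41). The adherens junction count lies near the background, so it says little about these genes as a set.

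The tight junction list split with Coptidis at the high dose: 9 of 21 tested genes were higher and 7 lower, with a median of 0.159, near the background of 67.5%. The scaffold *TJP3* (ZO-3) was at 0.824 CPM and 8.60 CPM with vehicle (log2 fold change -3.37), *CLDN2*, a claudin that forms cation pores, at 1.62 CPM and 5.98 CPM with vehicle (-1.88), and the cingulin relative *CGNL1* at 13.3 CPM and 39.8 CPM with vehicle (-1.58). Among other keratins and plectin 4 of 6 were higher and 1 lower, with *KRT17*, a stress-induced keratin of skin, at 7.88 CPM and 0.0861 CPM with vehicle, and the linker *PLEC* at 1.42 in log2. *KRT17* was near the limit of detection with vehicle. Whether it passed the filter only through groups where it was high was not checked, so its difference is given as a description. Epithelial regulators had 3 of 5 higher and 1 lower, with *SPINT1* (2.44), *ELF3* (2.36) and *PRSS8* (2.30).

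Of the EMT transcription factors other than *SNAI2*, 2 of 3 tested were higher with Coptidis at the high dose (background 67.5%): *SNAI1* (SNAIL), at 13.1 CPM and 3.11 CPM with vehicle (log2 fold change 2.07, edgeR adjusted p = 6.61e-16), and *ZEB1*, at 41.3 CPM and 25.8 CPM with vehicle (0.69, edgeR adjusted p = 3.53e-07). *TWIST1* was at 0 counts in all libraries. Mesenchymal genes did not move one way: 4 of 7 were higher and 2 lower, with *SPARC* at -1.59, *S100A4* at -0.65 and *TAGLN* at 0.80. All tested genes split likewise (34.5% higher, 33.0% lower) and both lists are short, so these counts say little about either list as a set. Liver markers fell in 7 of 8 with 1 higher, with *FGB* at -2.37, *TTR* at -1.81 and *AFP* at -0.97, and summed to 16110 and 16740 CPM at the Coptidis high dose and 24010 to 24880 CPM with vehicle. Fewer cells of a kind and less RNA per cell cannot be told apart in such bulk samples.

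Bupleuri at the high dose over its low dose moved a smaller selection of the same lists, where 40.2% of all tested genes passed. In the desmosome list 6 of 9 genes were higher and 2 lower (median 0.465, all genes -0.013), with *DSG2* (desmoglein-2) at 0.61 and *PKP2* at -0.56. The tight junction list had 8 higher and 6 lower of 21, with *CLDN6* at 26.0 CPM and 10.4 CPM at the low dose (log2 fold change 1.32), *CLDN4* at 145 CPM and 71.5 CPM at the low dose (1.02) and *TJP3* at 3.74 CPM and 8.26 CPM at the low dose (-1.16). *ELF3* was at 19.4 CPM and 8.51 CPM at the low dose (1.18), *SNAI1* at 5.15 CPM and 3.16 CPM at the low dose (0.70) and *SPARC* at 50.1 CPM and 80.2 CPM at the low dose (-0.68). The low-dose mean includes the library that stood apart.

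*CLDN4* and *CLDN6*, claudins of other epithelia, rose at the high dose of 2 more extracts in which *CLDN1* fell. Over the low dose *CLDN4* had log2 fold changes of 0.65 with Cimicifugae (102 CPM and 64.6 CPM at the low dose) and 0.69 with Yijung-tang (101 CPM and 63.3 CPM at the low dose), and *CLDN6* of 0.53 and 0.32. With Aconiti *CLDN6* fell instead (-0.44), as did *PARD3* (-0.48) and *TJP3* (-0.47). In the tight junction list 3 of 21 were higher and 4 lower with Cimicifugae (background 7.14%), 2 higher and 1 lower with Yijung-tang (7.29%) and 4 higher and 5 lower with Aconiti (14.6%).

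Across the 25 groups the levels of each gene could be put in order, and few neighbours in it differed by more than their summed SDs: 0 to 2 of 18 to 20 pairs of neighbours with replicates, per tested gene. For *CDH1* the order ran from Aconiti low (18.2 CPM) to Coptidis high (4.44 CPM), and no replicated neighbours differed beyond spread. Coptidis high had a single library, Banhasasim high (10.3 CPM), as its neighbour, so that gap was not set against a spread. The next group with replicates was Aconiti medium (11.7 CPM, SD 0.66), far above Coptidis high (SD 0.42). For *CLDN1* it ran from Aconiti low (164 CPM) to Banhasasim low (82.6 CPM). For *CDH2* vehicle was highest (119 CPM) and Coptidis high (81.2 CPM) stood clear below Bupleuri high (89.5 CPM), and for *KRT8* vehicle was lowest (930.2 CPM) and stood clear below Bupleuri medium (998 CPM).

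Over these 25 group means of log2 CPM, *KRT8* and *KRT18* followed each other with a Pearson r of 0.907, and 0.942 over the 22 groups without Coptidis. *CDH1* and *CLDN1* had an r of 0.569, and 0.720 without Coptidis, and *CDH1* and *TJP1* an r of -0.524, and 0.281 without Coptidis. Among 10682 genes the most like *CDH1* was *ACSM3* (0.950), the most like *CDH2* was *ITIH2* (0.927), the most like *CLDN1* was *RAD21* (0.915) and the most like *TJP1* was *TRIP12* (0.981). For *KRT8* it was *ARHGEF1* (0.970), for *KRT18* *PHETA1* (0.964), for *KRT19* *PLIN3* (0.980) and for *EPCAM* *COA6* (0.907). Spearman's rho for these pairs ran from 0.757 (*COA6*) to 0.943 (*ITIH2*), with 0.776 for *ARHGEF1* and 0.778 for *PLIN3*. Without Coptidis the most alike gene became *SPHK1* for *KRT8*, *IRF3* for *KRT18* and *CHST9* for *CLDN1*, and stayed for the others. Both sets of groups include the single GC-shifted Banhasasim low-dose library, highest for *KRT8* and *KRT18* and lowest for *TJP1*. Its part was not tested. The groups share sets and library composition, and these values are descriptions.

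Banhasasim-tang had 1 library per dose, so its values have no replicate check. *CDH2* had 92.7, 90.9 and 93.4 CPM at the low, medium and high dose, under all 3 vehicle libraries (116 to 123 CPM) and all 6 of Yijung-tang, its set partner (95.2 to 110.0 CPM). *CLDN1* had 140 CPM at the medium and 104 CPM at the high dose, and the high-dose value lay below Yijung-tang (113 to 161 CPM) and vehicle (158 to 164 CPM). *KRT18* had 614 and 665 CPM at these doses, above vehicle (478 to 502 CPM) and Yijung-tang (508 to 557 CPM). The low-dose library, the one with the strong GC shift and the smallest total, had 1887 CPM of *KRT8*, 1149 of *KRT18*, 356 of *KRT19*, 82.6 of *CLDN1* and 54.0 of *TJP1*.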

How the data were processed

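HepG2 RNA was sequenced as directional paired-end libraries of 100 bp reads, per the labels' protocols. Per the submitters' processing notes, the authors used GRCh38 and the tools RSEM 1.3.3, STAR 2.7.3a, Trim Galore 0.6.5 and FastQC 0.11.9. They deposited expected counts, which were not normalized. Of 267 columns, 60 matched a sample and 207 were not used. Expected counts were rounded (8.75% were not whole). Members were matched by symbol among 56558 named IDs, with positions from a GENCODE annotation on GRCh38.

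Genes were filtered with filterByExpr (44000 left out), scaled by TMM and fitted with edgeR 4.0.16 (quasi-likelihood, robust; R 4.3.3) over 57 libraries in 22 groups, with 35 residual degrees of freedom and a common biological variation of 6.14%. The adjustment was Benjamini-Hochberg over 16675 genes in each of 31 comparisons. Banhasasim-tang, with 1 library per dose, was not tested. The main fit was tried on simulated counts with 1 spread for all genes and no outlying library. It therefore does not show how the fit behaves with a library such as the third Bupleuri low-dose one. Alternatives were DESeq2 1.42.0, RLE scaling, no filter, a replicate block, a separate fit per extract, GC and length offsets (99.3% of tested genes had both values) and leaving out each library. The replicate numbers were checked as pairs by correlating deviations from group means over genes of at least 10 CPM: all 3 correlations were above 0.1 in Bupleuri high against low (0.13 to 0.299) and in Cimicifugae against Citri at the high dose (0.135 to 0.425) and in no other comparison of 3 pairs. With 2 pairs, r was 0.616 in Zizyphi, 0.34 in Coptidis and 0.159 in Yijung-tang high against low. It was 0.408 in Coptidis against Zizyphi at the high dose. The main fit did not use these pairs, and the replicate block was 1 factor of replicate number across all sets. Genes named from lists were those past the threshold with the greatest change, up to 3 per list and comparison, with at least 5 CPM in either group. The members and lists were chosen with earlier results of these data known. Likeness was Pearson's r over group means of log2(CPM + 0.5). Intervals and the floor of 3 counts cover counting error only.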

Additional observations from a re-analysis of the deposited data

Results flagged for a closer look

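Extracts of the same set differed at the high dose in 14 values by the edgeR test of the difference itself, of which 1, that of *SNAI2*, is a description: the gene entered the test only through its Coptidis high-dose counts, so its difference follows in part from the filter. Coptidis (280 µg/mL) over Zizyphi (500 µg/mL) gave log2 fold changes of -1.94 for *CDH1*, -0.49 for *CDH2*, 0.36 for *KRT8*, 0.95 for *KRT18*, 1.29 for *KRT19*, -0.51 for *CLDN1*, 0.80 for *TJP1* and 2.56 for *SNAI2*. Bupleuri (280 µg/mL) over Aconiti (500 µg/mL) gave 0.37 for *CDH1*, 0.17 for *KRT8*, 0.20 for *KRT18*, 0.91 for *KRT19* and 0.19 for *CLDN1*. Cimicifugae over Citri, both at 500 µg/mL, gave -0.20 for *CLDN1*.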

How the results depend on the processing

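Of 93 calls on these genes (4 of them of *SNAI2*, 3 of which had to differ through the filter), 59 held in every alternative, 66 held without any 1 library and 34 were lost in some alternative. A change of sign within 1 SE in a result that did not pass in either fit was counted as the same. Counted so, over 279 results the direction and side of the threshold were the same in 270 with DESeq2, 277 with RLE scaling, 269 with no filter, 278 with the replicate block and 236 with the GC and length offsets, and in 198 of 253 with a separate fit per extract. The replicate block changed 1 call: *CDH2* with Yijung medium passed (-0.22, edgeR adjusted p = 0.0379), which made 2 genes there. The cause of the changes below was not tested.

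Such small changes of sign near 0 came up in 43 results on leaving out 1 library (fitted values up to 0.35 in size, the 2 above 0.1 both of *SNAI2*) and in 24 under the other alternatives (up to 0.07). With the GC and length offsets the sign turned beyond that for *CLDN1* with Zizyphi high (0.079) and low (0.065), Citri medium (0.014) and low (0.049), Cimicifugae low (0.033), Bupleuri medium (0.0036) and low (0.017), and Yijung medium (0.056) and low (0.057). It turned for *KRT19* with Citri high (-0.11) and medium (-0.021), Cimicifugae high (-0.13), medium (-0.0021) and low (-0.045), Bupleuri medium (-0.069) and low (-0.0094), and Yijung medium (-0.025) and low (-0.021), for *KRT18* with Aconiti high (-0.033) and for *EPCAM* in Bupleuri over Aconiti (0.076). Leaving out 1 library turned the sign of 51 results, none of which had passed, and 8 of them by more than 1 SE. Over vehicle, *CLDN1* with Zizyphi medium ranged from -0.022 to 0.062, *SNAI2* with Citri high from -0.86 to 0.40, and with Bupleuri low *CDH1* from -0.22 to 0.10 and *EPCAM* from -0.0039 to 0.23. Between doses, *SNAI2* with Citri ranged from -0.15 to 1.303, and with Bupleuri *EPCAM* from -0.23 to 0.0015, *KRT18* from -0.068 to 0.16 and *KRT8* from -0.066 to 0.10.

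The number of these genes passing moved by more than 1.5-fold in a separate fit, given here with the number over all genes after each. Over vehicle it became 2 (all genes 1863), 3 (1189) and 3 (1418) with Zizyphi high, medium and low. It became 5 (4028), 3 (3517) and 4 (4432) with Citri high, medium and low. With Cimicifugae medium and low it was 5 (3786) and 3 (2914), and with Bupleuri medium and low 0 (197) and 0 (387). With Aconiti high it was 4 (5719), and with Yijung high, medium and low 5 (5157), 5 (3409) and 4 (1898). Between doses it moved to 4 (Citri, all genes 428), 2 (Cimicifugae, 2683) and 4 (Yijung-tang, 2905), and to 3 in Bupleuri over Aconiti (4093). It moved with DESeq2 to 2 (Zizyphi low, all genes 654), 2 (Citri medium, 1857), 1 (Cimicifugae low, 1160), 2 (Yijung medium, 1215) and 1 (Citri doses, 183). With no filter it moved to 3 (Zizyphi low, 696), 2 (Cimicifugae medium, 1713), 1 (Cimicifugae low, 1039) and 0 (Cimicifugae over Citri, 628). With the offsets it moved to 0 (Zizyphi low, 151), 1 (Citri low, 851), 4 (Aconiti high, 4590) and 2 (Citri doses, 327).

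Leaving out 1 library gave, over vehicle at the low, medium and high dose, 5 to 7, 7 to 9 and 8 to 9 genes (Coptidis), 0 to 3, 0 to 2 and 0 to 1 (Zizyphi), 1 to 5, 0 to 2 and 1 to 4 (Citri), 0 to 3, 0 to 4 and 3 to 4 (Cimicifugae), 2 to 7, 1 to 1 and 5 to 6 (Bupleuri), 0 to 5, 4 to 7 and 2 to 4 (Aconiti), and 0 to 2, 0 to 3 and 2 to 4 (Yijung-tang). Between doses it gave 7 to 8 (Coptidis), 0 to 0 (Zizyphi), 0 to 3 (Citri), 1 to 2 (Cimicifugae), 3 to 5 (Bupleuri), 3 to 5 (Aconiti) and 1 to 3 (Yijung-tang), and between extracts 8 to 9 (Coptidis over Zizyphi), 1 to 1 (Cimicifugae over Citri) and 3 to 6 (Bupleuri over Aconiti).

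Counts over all genes moved too. A separate fit gave 197 in place of 1822 (Bupleuri medium), 387 in place of 3716 (Bupleuri low), 4289 in place of 6491 (Bupleuri high), 1863 in place of 606 (Zizyphi high) and 1898 in place of 281 (Yijung low), and the offsets gave 851 in place of 2657 (Citri low) and 1927 in place of 3716 (Bupleuri low). Groups of 2 or 3 libraries limit what small changes can be told from the spread.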
